A study of Mus musculus with 4 samples.

Results

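The UDP-glucuronosyltransferases (Ugt), sulfotransferases (Sult) and glutathione S-transferases (Gst) of mouse liver were followed over a high-fat, high-sucrose diet. Members were all genes whose name on the array begins with Ugt1, Ugt2, Ugt3 or Sult, or with Gst and the letter of a cytosolic or mitochondrial class (a, k, m, o, p, t or z). This gave 51 of the 34761 genes on the array, namely 14 Ugt, 17 Sult and 20 Gst genes, read by 75 probes on 93 spots. Every sample was liver of male C57BL/6 mice, which started the diet when 5 weeks old and had been on it for 0, 5, 10 or 15 weeks, and so were 5, 10, 15 and 20 weeks of age. The series has 4 one-colour arrays, 1 for each time. Its design text mentions 4 mice at each time, without saying if their RNA was pooled. The 0-week mice had not yet been fed the diet, and mice of the same age on another diet were not analysed here, so time on the diet and age cannot be told apart.

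Phase II conjugation makes drugs, steroids, bile acids and bilirubin more water-soluble by joining a polar group to them. Ugt enzymes add glucuronic acid from UDP-glucuronic acid, Sult enzymes add sulfate from the donor PAPS, and Gst enzymes join glutathione to electrophiles such as epoxides and aldehydes of lipid peroxidation. In mouse liver many of these genes differ between the sexes, and many respond to the sensors CAR, PXR, AHR and NRF2.

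A few of the 60-base probes show where a reading is specific to a gene and where it is not.
They are printed 5′ to 3′ as the scanner files give them, with positions in build mm9 and in the transcript the file names.
The files give no exon or UTR for a probe.
The first pair lies side by side in the Ugt1a10 transcript, bases 734 to 793 at chr1:89952720-89952779 and bases 794 to 853 at chr1:89952780-89952839, both on the plus strand.
Ugt1a10, bases 734 to 793: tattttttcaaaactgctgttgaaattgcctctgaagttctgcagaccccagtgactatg
Ugt1a10, bases 794 to 853: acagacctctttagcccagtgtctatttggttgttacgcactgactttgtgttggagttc
The second pair reads Gstp1 (chr19:4035908-4036723, minus strand, across an intron) and Gstp2 (chr19:4040983-4041042, minus strand), and capitals mark the 5 mismatches within the 35 bases over which these probes overlap when aligned.
Gstp1, bases 349 to 408: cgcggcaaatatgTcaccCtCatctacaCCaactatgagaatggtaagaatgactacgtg
Gstp2, bases 331 to 390: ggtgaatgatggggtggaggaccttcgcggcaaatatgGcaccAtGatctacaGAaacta
The last pair reads 2 genes that were lowest at 5 weeks and highest at 15 weeks, Gstm3 (chr3:107769290-107770549, minus strand) and Gsta4 (chr9:78046172-78047344, plus strand), each across an intron.
Gstm3, bases 337 to 396: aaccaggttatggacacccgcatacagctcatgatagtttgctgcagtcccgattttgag
Gsta4, bases 194 to 253: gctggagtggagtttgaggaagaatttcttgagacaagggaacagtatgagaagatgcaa

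Values are the log2 of the scanner software's processed signal over the array's 75th percentile, so that 0 is the 75th percentile, and sets of 4 values run in the order 0, 5, 10 and 15 weeks. Levels of different probes are not comparable, because probes differ in their response. Spots well above background made up 44.5% to 48.3% of an array, and no spot was saturated. Repeated spots of a probe had a median SD of 0.06 to 0.07 on an array, which covers error between spots and not between mice. Of 15 hepatocyte markers on the array, 15 were above background at every time, and Alb, the albumin gene, read 11.60, 11.11, 11.50 and 10.70. Of 6 intestine and kidney genes, 2 or 3 were above background on an array. The summed signal of the 6, not in log2, was 219.6, 316.5, 326.8 and 239.3 in units of the array's 75th percentile.

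Of the 51 genes, 37 were above background on all 4 arrays: 12 Ugt, 7 Sult and 18 Gst genes. Another 9 were above background on none, namely Sult1c1, Sult2a1, Sult2a2, Sult2a4, Sult2a6, Sult3a1, Sult6b1, Ugt2a1 and Gstt4. The remaining 5 were Gsto2 on 3 arrays, Sult2b1 on 2, and Sult2a3, Sult4a1 and Ugt1a6a on 1 array each. The Sult2a genes, hydroxysteroid and bile acid sulfotransferases, were therefore unread apart from Sult2a7 and, on 1 array, Sult2a3. Their probes are also alike, since the Sult2a1 and Sult2a4 probes share 51 of 54 aligned bases and those of Sult2a1 and Sult2a2 share 54 of 59. The probes used for Sult2a1, Sult2a2, Sult2a3, Sult2a4 and Sult2a6 are each listed for more than 1 Sult2a gene.

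**Figure D1:**
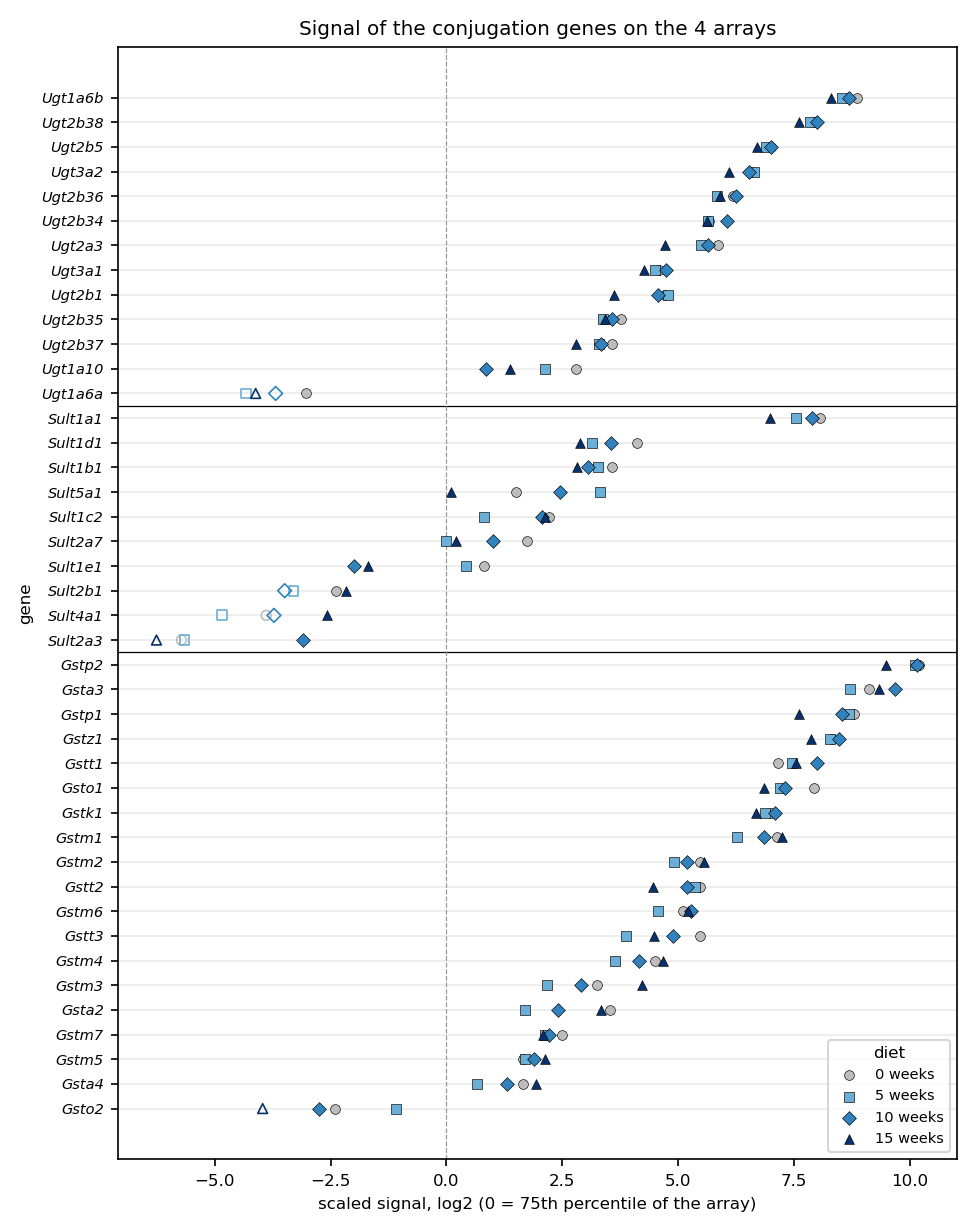
Scaled signal (log2, 0 = the array's 75th percentile) of the 42 conjugation genes above background on at least 1 array, by gene, with 1 symbol per time point. Filled symbols are above background and open symbols are not. Sult5a1, Sult1e1 and Sult2a7 spread widely over the 4 arrays, and most Ugt genes have the 15-week triangle furthest left.

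A gene counted as measured where both arrays of a comparison read it well above background, and as different at 2-fold or more. With 1 array per time point no test was possible, and the 3 comparisons with 0 weeks share that array. At 5 weeks against 0 weeks 38 conjugation genes were measured, of which 2 were higher and 5 lower, where 3.87% of the 17095 genes measured differed (2.3% higher and 1.57% lower). At 10 weeks 0 were higher and 3 lower of 38, where 4.45% of all genes differed (2.92% higher and 1.53% lower). At 15 weeks 0 were higher and 11 lower of 38, where 10.8% of all genes differed, 5.76% higher and 5.03% lower. The median log2 difference of the conjugation genes was −0.36, −0.20 and −0.36 at 5, 10 and 15 weeks, against −0.02, −0.01 and −0.25 over all genes measured. Relative to all genes these medians were −0.34, −0.19 and −0.11. The 15-week direction turned with quantile normalization, where the median was −0.0374 and stood at 0.0459 relative to all genes. The 15-week split depended on scaling: with the 75th percentile of detected probes, or with quantile normalization, 1 was higher and 5 lower, and over all genes 1011 higher and 884 lower became 1339 and 541, or 1123 and 677. With the array median 1 was higher and 9 lower, and 1123 and 729 over all genes. Of the 11 lower genes 5 stayed at least 2-fold lower in every alternative that gave a value (Sult1d1, Sult1e1, Sult2a7, Sult5a1 and Ugt1a10), and Gsto1, Gstp1, Gstt2, Sult1a1, Ugt2a3 and Ugt2b1 did not. The Ugt1a10 value comes from a probe also listed for Ugt1a9.

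**Figure D2:**
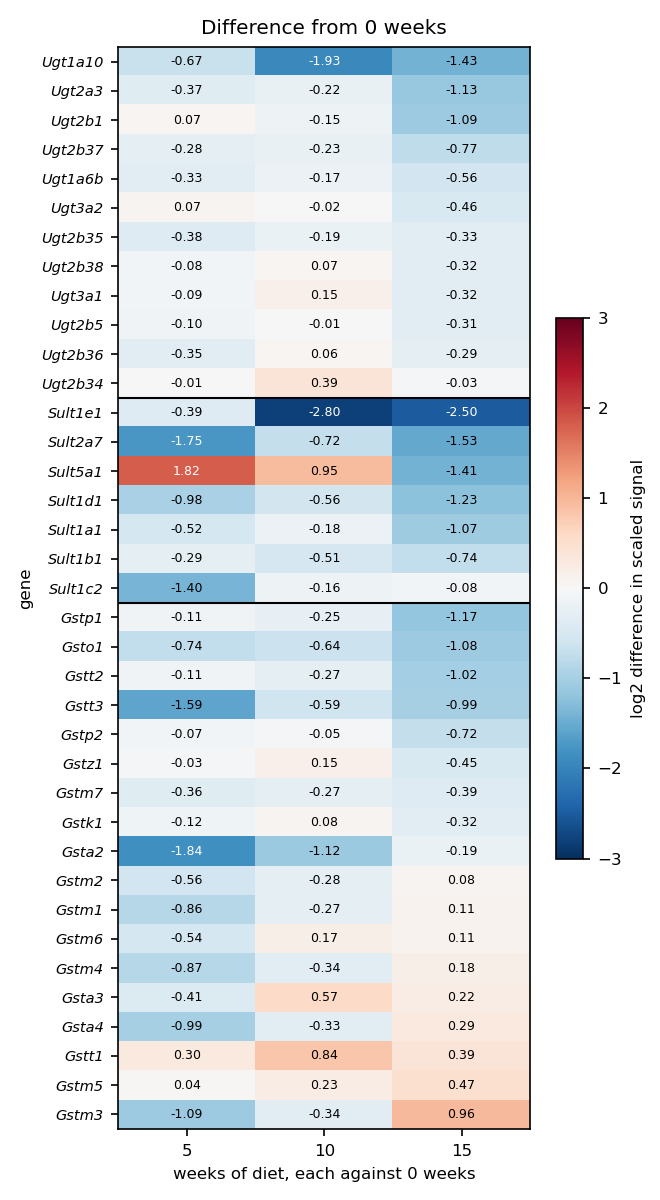
Log2 difference in scaled signal from 0 weeks (columns) for each conjugation gene above background on all 4 arrays (rows), with blue for lower and red for higher. The 5-week column is mostly blue for Gst alpha and mu genes (−1.84 for Gsta2), and the 15-week column is blue for all 12 Ugt genes as scaled (8 of 12 with quantile normalization).

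The Gst alpha and mu classes, the main glutathione-conjugating enzymes for epoxides and reactive aldehydes, were mostly lower at 5 weeks and mostly near or above their 0-week level at 15 weeks. All 10 of these genes were measured throughout. This grouping of alpha with mu was made after the values were seen, so its counts are a description. At 5 weeks 9 of the 10 were below their 0-week value, with a median of −0.71, and 2 were at least 2-fold lower. At 10 weeks the median was −0.28. At 15 weeks 8 of 10 were above 0 weeks, with a median of 0.15, or 0.40 relative to all genes, and 9 of 10 with quantile normalization. Between 5 and 10 weeks all 10 differences were above 0, as were 8992 of all 17108 genes measured. The median of the 10 was 0.62. Of the 10 genes 8 had their lowest value at 5 weeks, as did 13.5% of the 16684 genes above background on all arrays, and 6 had their highest at 15 weeks, as did 17.0% of all genes.

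Gsta2, an alpha-class enzyme known as inducible, read 3.54, 1.69, 2.42 and 3.35. It was highest at 0 and 15 weeks and was 3.59-fold lower at 5 weeks and 2.17-fold lower at 10 weeks than at 0 weeks. Gsta3, the mouse enzyme known for conjugating aflatoxin epoxide, read 9.13, 8.72, 9.70 and 9.35, a range under 2-fold, with its peak at 10 weeks. Gsta4, which conjugates lipid peroxidation aldehydes, has 10 spots per array and read 1.65, 0.65, 1.31 and 1.94, with spot SDs of 0.03 to 0.19. It was lowest at 5 weeks. Gsta4 was singled out after its values were seen, as were Gstm1, Gstm2, Gstm5, Gstm7, Gstt1, Gstz1, Gstk1, Ugt3a1 and Ugt3a2, and, outside the families, Ugdh, Papss2, Nr1i3 and Alb.

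Gstm3 read 3.25, 2.16, 2.92 and 4.21 with the probe printed above. It was lowest at 5 weeks and highest at 15 weeks. Its second probe, near the end of the transcript, read 1.25, −0.26, 0.76 and 3.81 and showed the same order of times with a wider spread. Against 0 weeks Gstm3 was 2.12-fold lower at 5 weeks, and at 15 weeks it stood 0.96 higher on the log2 scale, just under 2-fold. That 15-week difference passed 2-fold under 5 alternatives and was 1.76 with the mean of both probes. Among these alternatives the array median and the deposited value table are the same scaling.

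Gstm1 read 7.13, 6.27, 6.86 and 7.24, and Gstm2 read 5.48, 4.91, 5.19 and 5.55. Both were lowest at 5 weeks, and neither differed 2-fold from 0 weeks. The Gstm1 probe used is placed by the file on chromosome 5, away from the other mu genes on chromosome 3, and the other Gstm1 probe, on chromosome 3, read 6.75, 5.90, 6.39 and 6.92. Gstm4 read 4.50, 3.63, 4.16 and 4.68 with 1 probe and 3.53, 3.16, 3.28 and 3.09 with the other, so its probes disagree on whether 15 weeks is its highest or lowest time. Gstm5, at 1.66, 1.70, 1.89 and 2.13, and Gstm7, at 2.49, 2.13, 2.22 and 2.09, did not share the 5-week low followed by a 15-week high. Mu genes are close relatives and their probes can share signal.

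At 15 against 5 weeks 37 conjugation genes were measured, with 5 higher and 4 lower, where 8.37% of all genes differed (4.08% higher and 4.3% lower). Of the 5 higher genes, 4 were alpha or mu genes: Gstm3 was 4.14-fold, Gsta2 3.14-fold, Gsta4 2.44-fold and Gstm4 2.07-fold higher. With the mean of its probes Gstm3 was at 3.06 on the log2 scale. The Gstm4 value fell under 2-fold, to 0.49 on the log2 scale, with the mean of its probes. The other higher gene was Sult1c2, at 2.50-fold. The 4 lower were Sult5a1 at 9.38-fold, Sult1e1 at 4.29-fold, Ugt2b1 at 2.24-fold and Gstp1 at 2.09-fold, of which Ugt2b1 and Gstp1 fell under 2-fold with other scalings. The split was 6 higher and 3 lower with the array median and 7 higher and 2 lower with quantile normalization.

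**Figure D3:**
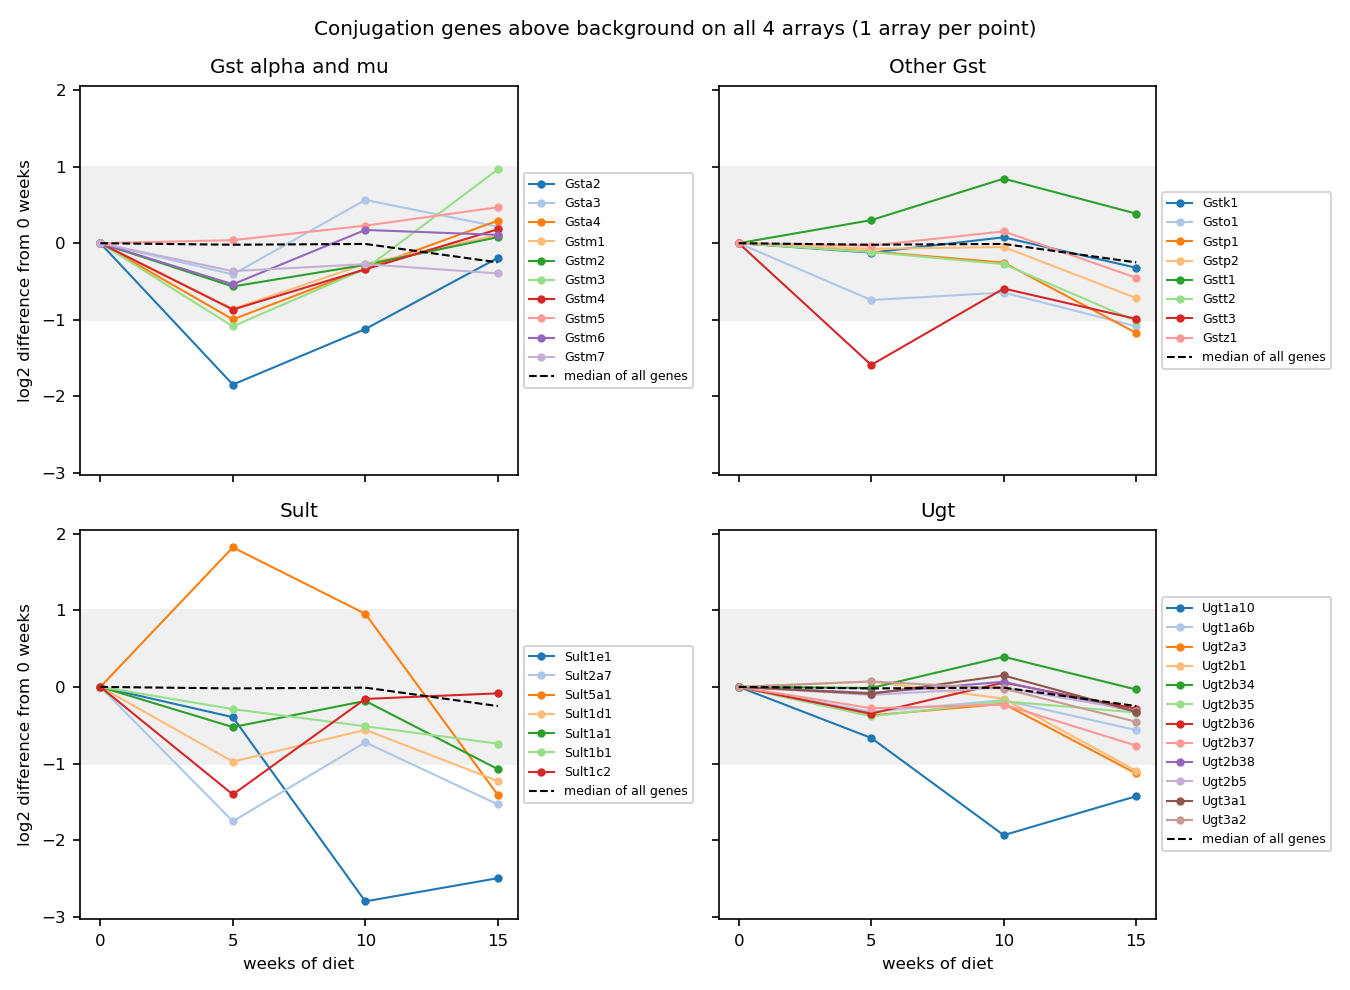
Log2 difference from 0 weeks against weeks of diet for the conjugation genes above background on all 4 arrays, in 4 panels, with 1 line per gene and 1 array per point. The dashed line is the median of all genes and the shaded band marks differences under 2-fold. Gst alpha and mu lines dip at 5 weeks and end near or above 0, while most lines in the other panels end below 0.

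Of the kappa, omega, pi, theta and zeta classes, Gsto1, Gstp1 and Gstt2 were at least 2-fold lower at 15 weeks than at 0 weeks. Of their 8 genes above background on all arrays, 6 had their lowest value at 15 weeks, a share near that of all genes (59.2%). The median of these 8 at 15 weeks against 0 weeks was −0.85, or −0.60 relative to all genes. Between 10 and 15 weeks all 8 differences were below 0 (6 of 8 with quantile normalization), as were 12874 of all 17490 genes measured as scaled. With quantile normalization 0 of these 8 were 2-fold lower at 15 weeks than at 0 weeks.

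Gstp1, the pi-class enzyme that is abundant in male mouse liver, read 8.79, 8.69, 8.54 and 7.62. The first 3 arrays lay close together and the 15-week array was 2.25-fold below 0 weeks. Gstp2, its neighbour on chromosome 19, read 10.20, 10.13, 10.15 and 9.49 with the probe of higher signal and 9.12, 8.96, 8.86 and 7.86 with the probe printed above. Both Gstp2 probes were lowest at 15 weeks as scaled. With quantile normalization the Gstp2 difference at 15 weeks was −0.05 against 0 weeks and 0.01 against 5 weeks on the log2 scale. The 5 mismatches over 35 bases show how alike the Gstp1 probe and the printed Gstp2 probe are, so signal may be shared. A second Gstp1 probe is listed for both genes.

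Gsto1, an omega-class enzyme that reduces dehydroascorbate, read 7.95, 7.20, 7.30 and 6.86, highest at 0 weeks, and was 2.12-fold lower at 15 weeks. Gstt2, a theta-class enzyme, read 5.48, 5.36, 5.20 and 4.46, and was 2.02-fold lower at 15 weeks. Gstt3, also theta class, read 5.47, 3.89, 4.88 and 4.49, and was 3.01-fold lower at 5 weeks. Gstt1, the theta enzyme for small halogenated compounds, read 7.16, 7.46, 8.0 and 7.54, highest at 10 weeks and under 2-fold throughout. Gstz1, the maleylacetoacetate isomerase of tyrosine breakdown, ranged from 7.86 to 8.47, and Gstk1, the mitochondrial and peroxisomal enzyme, from 6.69 to 7.09.

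Gsto2 read −2.41, −1.08 and −2.74 and was not above background at 15 weeks. It was 2.52-fold higher at 5 weeks than at 0 weeks and at least 2.93-fold lower at 15 weeks. Of the 44 spots nearest to it, 13 were at least 2-fold bright on the 5-week array, where 95% of spots had 5 or fewer, and with normexp the 5-week difference was 0.58.

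The sulfotransferases were mostly highest before the diet. Of the 7 above background on all arrays, 6 had their highest value at 0 weeks, as did 33.0% of all genes. At 15 weeks 5 of 8 measured were at least 2-fold lower than at 0 weeks, with a median of −1.15, or −0.90 relative to all genes, and 0 were higher. At 5 weeks 1 was higher and 2 lower of 7, and at 10 weeks 0 were higher and 1 lower.

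Sult1e1, the estrogen sulfotransferase, read 0.81, 0.42, −1.99 and −1.68. It was high on the first pair of arrays and low on the last, 6.96-fold lower at 10 weeks and 5.64-fold lower at 15 weeks than at 0 weeks. It is read by 1 spot, with 5 of 44 nearby spots bright on the 0-week array and 6 on the 5-week array, and under normexp these differences were −1.91 and −1.88.

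Sult5a1 read 1.5, 3.32, 2.46 and 0.10. It was highest at 5 weeks, 3.53-fold above 0 weeks, and lowest at 15 weeks, 2.65-fold below 0 weeks and 5.14-fold below 10 weeks. A second Sult5a1 probe was below background on all 4 arrays.

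Sult2a7, a hydroxysteroid sulfotransferase by family, read 1.74, −0.02, 1.01 and 0.20, and was 3.37-fold lower at 5 weeks and 2.89-fold lower at 15 weeks. Sult1c2 read 2.22, 0.81, 2.06 and 2.13, so that the 5-week array alone was low, at 2.65-fold. Sult1d1, which sulfates catecholamines in mice, read 4.11, 3.14, 3.55 and 2.89, and was 2.34-fold lower at 15 weeks. Its 5-week difference of −0.98 on the log2 scale passed 2-fold with the array median, at −1.04. A second Sult1d1 probe was below background on all 4 arrays.

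Sult1a1, the phenol sulfotransferase, read 8.07, 7.54, 7.89 and 7.0, lowest at 15 weeks at 2.10-fold under 0 weeks. Sult1b1, which sulfates thyroid hormones, read 3.57, 3.28, 3.05 and 2.83, with each array below the one before and all differences under 2-fold. Sult2b1, which sulfates cholesterol, read −2.39 at 0 weeks and −2.17 at 15 weeks, was not above background between them, and was at least 2.15-fold lower at 10 weeks than at 0 weeks. Sult4a1, a brain sulfotransferase, was above background at 15 weeks alone, at −2.57, which is at least 2.02-fold higher than at 0 weeks. Sult2a3 was above background at 10 weeks alone, at −3.10, where 15 of 44 nearby spots were bright. Its probe is also listed for Sult2a4.

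Ugt2a3, Ugt2b1 and Ugt1a10 were the Ugt genes called at least 2-fold lower at 15 weeks than at 0 weeks. The Ugt1a10 call comes from a probe also listed for Ugt1a9, and the probe listed for Ugt1a10 alone was above background at 15 weeks alone. All 12 Ugt genes measured were below their 0-week value at 15 weeks as scaled. Their median was −0.39, or −0.14 relative to all genes, and 11 of the 12 lay below the median of all genes. Of all 17562 genes measured, 12455 were below their 0-week value. With quantile normalization 8 of the 12 Ugt genes were below, and their median was −0.05, or 0.03 relative to all genes. At 15 weeks 3 were at least 2-fold lower and 0 higher, and 1 was lower with quantile normalization or the detected probes. At 5 weeks 0 were 2-fold different, with a median of −0.19, and at 10 weeks 1 was lower, with a median of −0.09.

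Ugt2b1, a steroid and drug glucuronosyltransferase, read 4.72, 4.79, 4.57 and 3.63, with the first 3 arrays close together and the 15-week array 2.13-fold below 0 weeks. Ugt2a3 read 5.86, 5.49, 5.64 and 4.73, and was 2.19-fold lower at 15 weeks. The other Ugt2b genes differed less. Ugt2b38 read 7.93, 7.86, 8.0 and 7.61, and Ugt2b5 read 7.01, 6.91, 7.01 and 6.70. Over the 7 Ugt2b genes the 15-week differences ran from −1.09 to −0.03. The Ugt2b37 and Ugt2b5 probes share 46 of 55 aligned bases, and the Ugt2b36 probe is listed for Ugt2b37 too. Ugt3a1 and Ugt3a2, whose human counterparts use other UDP-sugars, read 4.59, 4.50, 4.74 and 4.27, and 6.57, 6.64, 6.54 and 6.11.

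The Ugt1a genes share their last exons, each joined to a first exon of its own, so a probe in the shared end can read several of them. The Ugt1a6b probe used is listed for Ugt1a10, Ugt1a6a, Ugt1a6b and Ugt1a7c and read 8.86, 8.53, 8.68 and 8.29. A second probe, listed for Ugt1a6b alone, a phenol glucuronosyltransferase, read 2.94, 2.58, 2.93 and 2.65. Neither probe differed 2-fold between times. The Ugt1a6a probe starts further along the transcript, at base 3238, and is likewise listed for several Ugt1a genes. It was above background at 0 weeks alone, at −3.03, where the lowest signal well above background was −3.59. That probe was at least 2.11-fold lower at 15 weeks, but the shared Ugt1a6b probe, also listed for Ugt1a6a, did not differ 2-fold. A lower level of Ugt1a6a itself therefore cannot be read from it.

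The Ugt1a10 probe of bases 794 to 853, also listed for Ugt1a9, read 2.80, 2.13, 0.86 and 1.37. It was high at 0 weeks and low at 10 weeks, 3.82-fold lower at 10 weeks and 2.69-fold lower at 15 weeks than at 0 weeks. On the 5-week array 17 of the 44 spots nearest to it were bright. The probe of bases 734 to 793, listed for Ugt1a10 alone, was above background at 15 weeks alone, at −2.95, where 8 of 44 nearby spots were bright. The bases read by the first of these therefore cannot be assigned to Ugt1a10 rather than Ugt1a9.

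**Figure D4:**
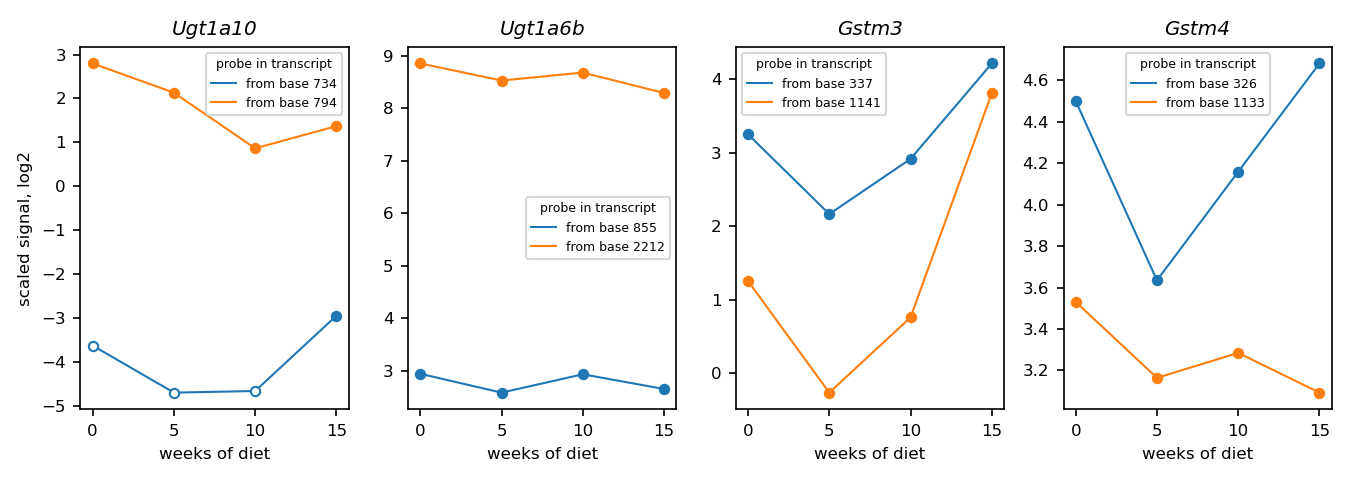
Scaled signal (log2) against weeks of diet for the 2 probes of each of Ugt1a10, Ugt1a6b, Gstm3 and Gstm4, with lines named by the transcript base at which a probe starts. Open circles are not above background. The Gstm3 probes share their order of times, the Gstm4 probes part at 15 weeks, and the Ugt1a10 probe from base 734 is above background at 15 weeks alone.

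Between 5 and 10 weeks 2 conjugation genes were higher and 3 lower of 38, where 2.09% of all genes differed (0.953% higher and 1.13% lower). Sult1c2 was 2.37-fold and Sult2a7 2.04-fold higher (0.82 on the log2 scale for Sult2a7 with normexp). Sult1e1 was 5.29-fold, Gsto2 3.16-fold and Ugt1a10, by the probe shared with Ugt1a9, 2.41-fold lower. With normexp Gsto2 fell under 2-fold, at −0.70 on the log2 scale, and Sult1e1 was at −1.57. All 3 have locally bright spots on the 5-week array, and with such spots left out 2 genes were higher and 0 lower. With the array median this split was 1 higher and 3 lower. Between 10 and 15 weeks 1 was higher, Gstm3 at 2.46-fold (2.17 on the log2 scale with the mean of its probes), and 1 lower, Sult5a1, of 37, where 8.01% of all genes differed (3.95% higher and 4.06% lower). With the array median 2 were higher and 1 lower.

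Of 16 genes for UDP-glucuronic acid and PAPS supply, 0 were higher and 0 lower at any time against 0 weeks. Over all genes measured, 2.3%, 2.92% and 5.76% were higher and 1.57%, 1.53% and 5.03% lower at 5, 10 and 15 weeks. Ugdh, which makes UDP-glucuronic acid, read 5.08, 4.17, 4.75 and 5.03, and Papss2, a PAPS synthase, read 6.74, 6.41, 6.59 and 5.84. Among glutathione genes 1 of 24 was higher at 5 weeks, 2 of 23 were higher and 1 lower at 10 weeks, and 3 of 24 were higher and 4 lower at 15 weeks. The higher genes at 15 weeks were Nat8, which acetylates cysteine conjugates, Chac1, which degrades glutathione, and Mgst3, a microsomal glutathione transferase outside the families above. Nat8 read 2.07, 4.56, 4.45 and 4.17. The lower ones were Gpx2, Cth, Glrx and Ggt6, of which Cth, a cysteine-making enzyme, read 7.71, 7.20, 6.80 and 6.10. Other conjugation enzymes had 0 different at 5 weeks, Inmt higher at 10 weeks, and Nnmt and Gnmt lower at 15 weeks among 15 or 16 measured. Acsm2 was above background at 0 and 5 weeks and not at 10 or 15 weeks, so the later counts leave it out.

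Of the sensors that control these genes, 17 were measured and 0 differed 2-fold at 5 or 10 weeks. The shares of all genes at 5, 10 and 15 weeks were 2.3%, 2.92% and 5.76% higher and 1.57%, 1.53% and 5.03% lower. At 15 weeks Bcl6 was 2.01-fold higher and Esr1, the estrogen receptor gene, 2.26-fold lower. Nr1i3, the gene of CAR, read 5.17, 4.86, 5.23 and 4.22. Among cytochrome and other targets of CAR and PXR, 6 of 15, 4 of 16 and 12 of 19 were lower and 0 higher at 5, 10 and 15 weeks. Cyp3a11, a PXR target, read 9.47, 5.99, 7.40 and 8.09, lowest at 5 weeks. Cyp2b10, a CAR target, read 6.61 at 0 weeks, was not above background at 5 weeks, and read −1.22 and 2.33 at 10 and 15 weeks. It was 226.9-fold lower at 10 weeks and 19.4-fold lower at 15 weeks than at 0 weeks. Cyp2b9, Cyp2b10 and Cyp2b13 were above background at 0 weeks and not at 5 weeks, so the 5-week count leaves them out. NRF2 targets outside the Gst family had 0 higher and 2 lower of 19 at 5 weeks, 1 and 3 at 10 weeks, and 2 and 2 at 15 weeks. AHR targets had 1 higher, Cyp1b1, of 5 at 15 weeks and 0 different earlier. Transporters that carry conjugates or their parent compounds had 0 higher and 2 lower of 12 at 5 weeks, 0 and 1 of 11 at 10 weeks, and 1 and 1 of 12 at 15 weeks.

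Genes that differ between the sexes in mouse liver also moved with time. Of 14 male-biased genes 6, 5 and 4 were higher and 0, 0 and 2 lower at 5, 10 and 15 weeks against 0 weeks. Over all genes these shares were 2.3%, 2.92% and 5.76% higher and 1.57%, 1.53% and 5.03% lower. Of the female-biased genes 6 of 11, 8 of 13 and 9 of 14 were lower and 0 higher. This list shares Cyp2b9, Cyp2b13, Cyp3a41a, Cyp3a41b, Cyp3a44 and Cyp2a4 with the CAR and PXR targets, so those 2 sets of counts are not independent. Some of the other lists share genes too. The part of the sex-biased genes in the Sult, Ugt and Gst differences was not tested.

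Promoter windows of 300 bases, from 250 before to 50 after the start, were found for 43 of the 51 genes in RefSeq (GRCm38.p6), 53 windows in all. On either strand, TGACNNNGC, the core of the antioxidant response element, was found in 3 of the 53 and in 12.4% of all 32851 promoters. The 3 were those of Gsta3, Gstm5 and Gstm7. GCGTG, the core of the AHR element, was in 9 windows of 7 genes (32.4% of all promoters), and TTCNNNGAA, the STAT element, was in 3 (8.30%). A match is a description of letters and not of binding.

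Cell type markers moved with time as well, and in bulk liver fewer hepatocytes and less RNA per hepatocyte cannot be told apart. Beside the counts below, 2.3%, 2.92% and 5.76% of all genes were higher and 1.57%, 1.53% and 5.03% lower at 5, 10 and 15 weeks. Hepatocyte markers had 4 of 15 at least 2-fold lower at 15 weeks, with a relative median of −0.34. Their summed signal was 19822, 17779, 18787 and 12687 in units of the array's 75th percentile. Macrophage markers had 5, 12 and 11 of 14 higher, with summed signals of 181.5, 326.2, 401.9 and 476.1. Stellate and smooth muscle markers had 0 higher and 3 lower of 11 at 5 weeks, 0 and 5 at 10 weeks, and 5 and 1 at 15 weeks, with sums of 192.7, 194.8, 136.3 and 299.1. Bile duct markers had 1 higher and 3 lower of 10 at 5 weeks, 0 and 5 at 10 weeks, and 3 and 1 at 15 weeks. T and NK cell markers had 1, 3 and 3 higher of 6, and the 10 endothelial markers had 0 different at any time. The part of these shifts in the differences of the conjugation genes was not tested.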

How the data were processed

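Liver RNA of 4 samples, 1 per time point, was read on 4 one-colour arrays. Per the file headers, Agilent Feature Extraction 10.7.3.1 produced the deposited processed intensity, a linear fluorescence signal already corrected for background, with marks for spots above background. A value table the authors deposited holds that intensity divided by the array median. All 4 scans share 1 slide, 1 scan time and 1 array design. From the processed intensity, the log2 of each signal over the array's 75th percentile was computed, control and outlier-marked spots were left out, spots of a probe were averaged, and each gene took its brightest probe by mean over the arrays. A 2-fold rule replaced a test, because there was 1 array per time point. Where a probe was above background on 1 array of a pair, a bound was set against the dim probe's own signal or the array's lowest signal well above background, whichever was higher. Probes were named through RefSeq (GRCm38.p6), 27509 of 55681 by accession, 3549 by symbol, 404 by older symbol and 24219 as in the file. Genes printed with all 4 values were those at least 2-fold different from 0 weeks, those with a bound of at least 2-fold, the 3 brightest of each family and those whose probes disagree, with the exceptions named in the text. Members and lists were chosen with earlier results of these data known. Alternatives were scaling (array median, detected probes, quantile), normexp (offset 50, limma 3.58.1 in R 4.3.3), the deposited table, the probe rule, the background filter, locally bright spots and a 1.5-fold threshold. Scripts ran in Python 3.11.15 and were tested on simulated data. Precision is limited by the number of arrays.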

Additional observations from a re-analysis of the deposited data

How the results depend on the processing

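No paired analysis was possible because each time point has 1 array. Of the 2-fold calls named above against 0 weeks, 6 of 7 at 5 weeks, 3 of 3 at 10 weeks and 5 of 11 at 15 weeks held under every alternative that gave a value. The 5 were Sult1d1, Sult1e1, Sult2a7, Sult5a1 and Ugt1a10, the last by the probe shared with Ugt1a9. Gsto1, Gstp1, Gstt2, Sult1a1, Ugt2a3 and Ugt2b1 dropped under 2-fold with the scaling to detected probes and with quantile normalization, and Gsto1, Gstt2 and Sult1a1 also with normexp. Gstt2 and Sult1a1 did so with the array median and the deposited table too. Gstt2 fell to −0.71 and Sult1a1 to −0.57 with quantile normalization. The count of conjugation genes at least 2-fold different at 15 against 0 weeks, 11, became 6 with detected probes, 6 with quantile normalization and 17 without the background filter, which adds genes near background. Without that filter the counts were 7 at 10 against 0 weeks and 7 at 15 against 10 weeks. Leaving out locally bright spots gave 2 at 10 against 5 weeks. At 1.5-fold the counts were 13 at 5 against 0 weeks, 8 at 10 against 0 weeks, 13 at 10 against 5 weeks, 13 at 15 against 10 weeks and 18 at 15 against 5 weeks. Relative medians of the conjugation genes became 0.0459 at 15 against 0 weeks, 0.0865 at 15 against 10 weeks and 0.28 at 15 against 5 weeks with quantile normalization. Without the background filter they were −0.43 at 5 against 0 weeks, −0.0333 at 15 against 10 weeks and 0.14 at 15 against 5 weeks. With locally bright spots left out they were 0.32 at 10 against 5 weeks and 0.19 at 15 against 5 weeks. The cause of the quantile and bright-spot shifts was not tested. Over the named genes' values, 741 of 1055 alternatives moved the value by less than the spot SD or kept its call, 269 moved an uncalled value by more, 32 dropped it under 2-fold and 13 raised it past 2-fold, and none of those run changed the direction of a called value. Not all of these are separate checks. The deposited table is the signal over the array median and repeats that scaling, with 65 of the 741 under each. Leaving out the background filter (136 of the 741) or locally bright spots (103) rescales no value still given, and none moved. With only 1 probe above background on both arrays of a comparison, the mean of a gene's probes equals its value and is no check. The 5 calls that held at 15 weeks are all of this kind. With 1 array per time point, none of these differences has a replicate check.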
